A study of Saccharomyces cerevisiae with 16 samples.

Results

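The set described here holds 52 open reading frames of Saccharomyces cerevisiae that carry no gene name of their own and whose signal differed widely between growth conditions. Among the 5449 genes with a symbol on the arrays, 499 are listed only by a systematic name, which gives the chromosome, the arm, a number counted outwards from the centromere, and the strand (W or C). An open reading frame entered the set when its brightest probe set had a mean of at least 8 on the log2 scale over all 16 arrays and when the highest of its 8 group means lay at least 1.5 above the lowest. The members were thus chosen by the measured values themselves, and their levels and differences are given as a description, without a test. All 52 were found in the RefSeq gene table of S. cerevisiae, and all 52 are still without a standard name there.

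The arrays were Affymetrix yeast arrays of total RNA from chemostats at steady state, with 2 arrays in each of 8 groups. A mutant strain (SCE088), for which the labels give no mutated gene, and a reference strain (SCE090) were each grown on ethanol or on glucose. Growth was limited either by ammonium sulfate, the nitrogen source that every culture received, or by the carbon source itself. Neither a further genotype of the strains nor a growth rate is given in the labels. The 8 groups are called nitrogen limitation on ethanol, ethanol limitation, nitrogen limitation on glucose and glucose limitation, in the mutant and in the reference.

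In a chemostat, the nutrient that runs short limits growth while the others remain in excess. S. cerevisiae represses genes for respiration, for gluconeogenesis and for the use of other carbon sources while glucose is plentiful, and the repression is lifted when glucose is scarce or when ethanol is the carbon source. Nitrogen catabolite repression works in a like manner on permeases and enzymes for poor nitrogen sources. Open reading frames without a name are those for which no function has been firmly assigned. They include paralogs of known genes, remnants of transposons, genes of the repeated chromosome ends, and short frames that may not encode a protein.

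The members had mean log2 intensities from 8.02 to 13.09, with a median of 10.16, against a median of 12.02 for genes with a standard name and 11.05 for the other systematic names. The range of group means ran from 1.54 to 4.56 with a median of 2.01. It was at least 2 in 26 members and at least 3 in 10. A range of at least 1.5 occurred in 12.2% of the 426 systematic names with a mean of at least 8, and in 5.54% of 4896 standard names with such a mean. Both shares were larger at low signal. Between 8 and 9 they were 30.8% of the systematic names and 25.8% of the standard names, and between 10 and 11 they were 15.1% and 8.65%. Between 11 and 12 they were 7.69% and 4.30%, and between 12 and 13 they were 5.81% and 4.70%. The order was the other way between 9 and 10, with 20% and 21.4%, and from 13 upwards, with 2.63% and 3.18%. A further 24 systematic names had a range of at least 1.5 but a mean under 8, and those were not kept.

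**Figure D1:**
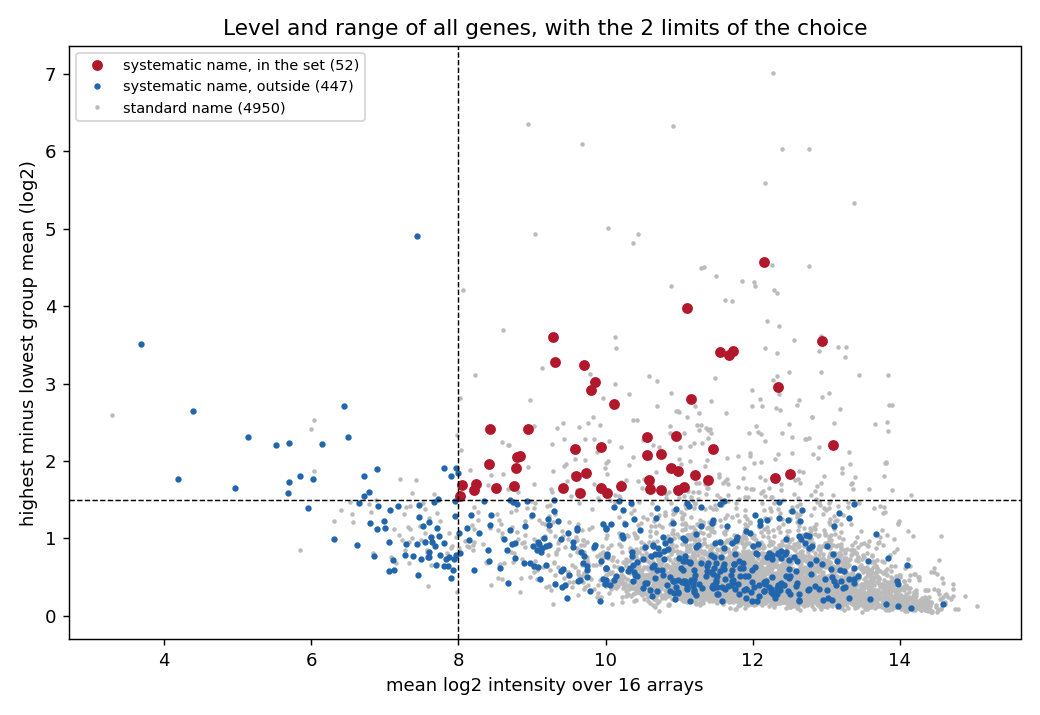
Mean log2 intensity over 16 arrays (x axis) against the highest minus the lowest of 8 group means (y axis, log2), with 1 point per gene and dashed lines at the limits of 8 and 1.5. The 52 members lie in the upper right field, with ranges from 1.54 to 4.56.

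Just inside the limit on the range were YOR387C with 1.54, YOR012W with 1.58 and YCR099C with 1.59. Just outside it were YER187W, YJL052C-A and YLR162W, each with 1.49. Just inside the limit on the mean were YOR387C with 8.02, YFL012W with 8.05 and YIL046W-A with 8.21, and just outside it were YLR012C with 7.90, YDR194W-A with 7.97 and YOL014W, which rounds to 8.00.

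The conditions on the labels were looked for in genes of known function. In the reference, nitrogen against glucose limitation on glucose gave 20 higher and 3 lower of 27 genes under nitrogen catabolite repression, where 21.4% of all 5716 probe sets were higher and 22.2% were lower (limma, adjusted p under 0.05). The largest rises were those of OPT2, an oligopeptide transporter, by 6.13, and of DAL5, an allantoate permease, by 3.36. A list for gluconeogenesis and the glyoxylate shunt had 1 gene higher and 17 lower of 18. In the same comparison, the general stress response had 7 higher and 5 lower of 22, hexose transport had 4 and 2 of 9, and ribosome biogenesis had 0 and 11 of 20. For nitrogen against ethanol limitation in the reference, 14 of the 27 nitrogen genes were higher and 2 lower, where 8.21% of all probe sets passed. For ethanol against glucose under carbon limitation, 17 were higher and 3 lower, where 24.3% passed. That list therefore does not mark nitrogen limitation alone. All 18 gluconeogenic and glyoxylate genes were higher on ethanol than on glucose under nitrogen limitation, with a median of 2.46 and with ADY2, an acetate transporter, at 5.72 and SFC1 at 4.97, where 17.7% of all probe sets were higher and 15.9% were lower. The arrays of a group correlated at 0.984 to 0.997 across probe sets, and the array medians lay between 11.91 and 12.01. The intensities are relative to the total RNA of a culture, so that fewer cells with a transcript and less of it per cell cannot be told apart.

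Arrays of the same group did not always agree for these members. In 18 of 52, the 2 arrays of some group differed by at least 1 on the log2 scale, and the largest such difference was 2.90 in YOL038C-A. The other 34 had differences under 1 in every group and a median pooled SD of 0.12. In 12 of the 18, the differences between arrays followed one pattern, with a likeness of 0.9 or more between the 8 differences of a member and the median of the other variable members (the cosine of the angle between them, where 1 is identical). These 12 were YOL038C-A, YJR151W-A, YMR315W-A, YHR212W-A, YHL012W, YOR293C-A, YMR105W-A, YEL076C, YOR268C, YMR084W, YOL097W-A and YJL218W. Counts of classes, of highest and lowest groups and of strain differences are given below with and without the 18.

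The 52 members were ordered by the part of the layout, out of 7, with the largest share of the variation between their group means. That share ran from 20.4% in YFL012W to 88.2% in YIL046W-A, and it was 35.5% in YMR206W. The largest share was that of the carbon source in 25 members and of the limitation in 15. It was that of the carbon source by limitation in 5, the strain by limitation in 3, the strain in 2 and the strain by carbon source in 2. Among the 34 members with array differences under 1, the counts were 11 for the carbon source, 14 for the limitation, 5 for the carbon source by limitation, 2 for the strain by limitation, 2 for the strain by carbon source and 0 for the strain. Of the 271 standard names that pass the same limits, the carbon source had the largest share in 34.3% and the limitation in 44.3%. These 271 were not limited by array differences.

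**Figure D2:**
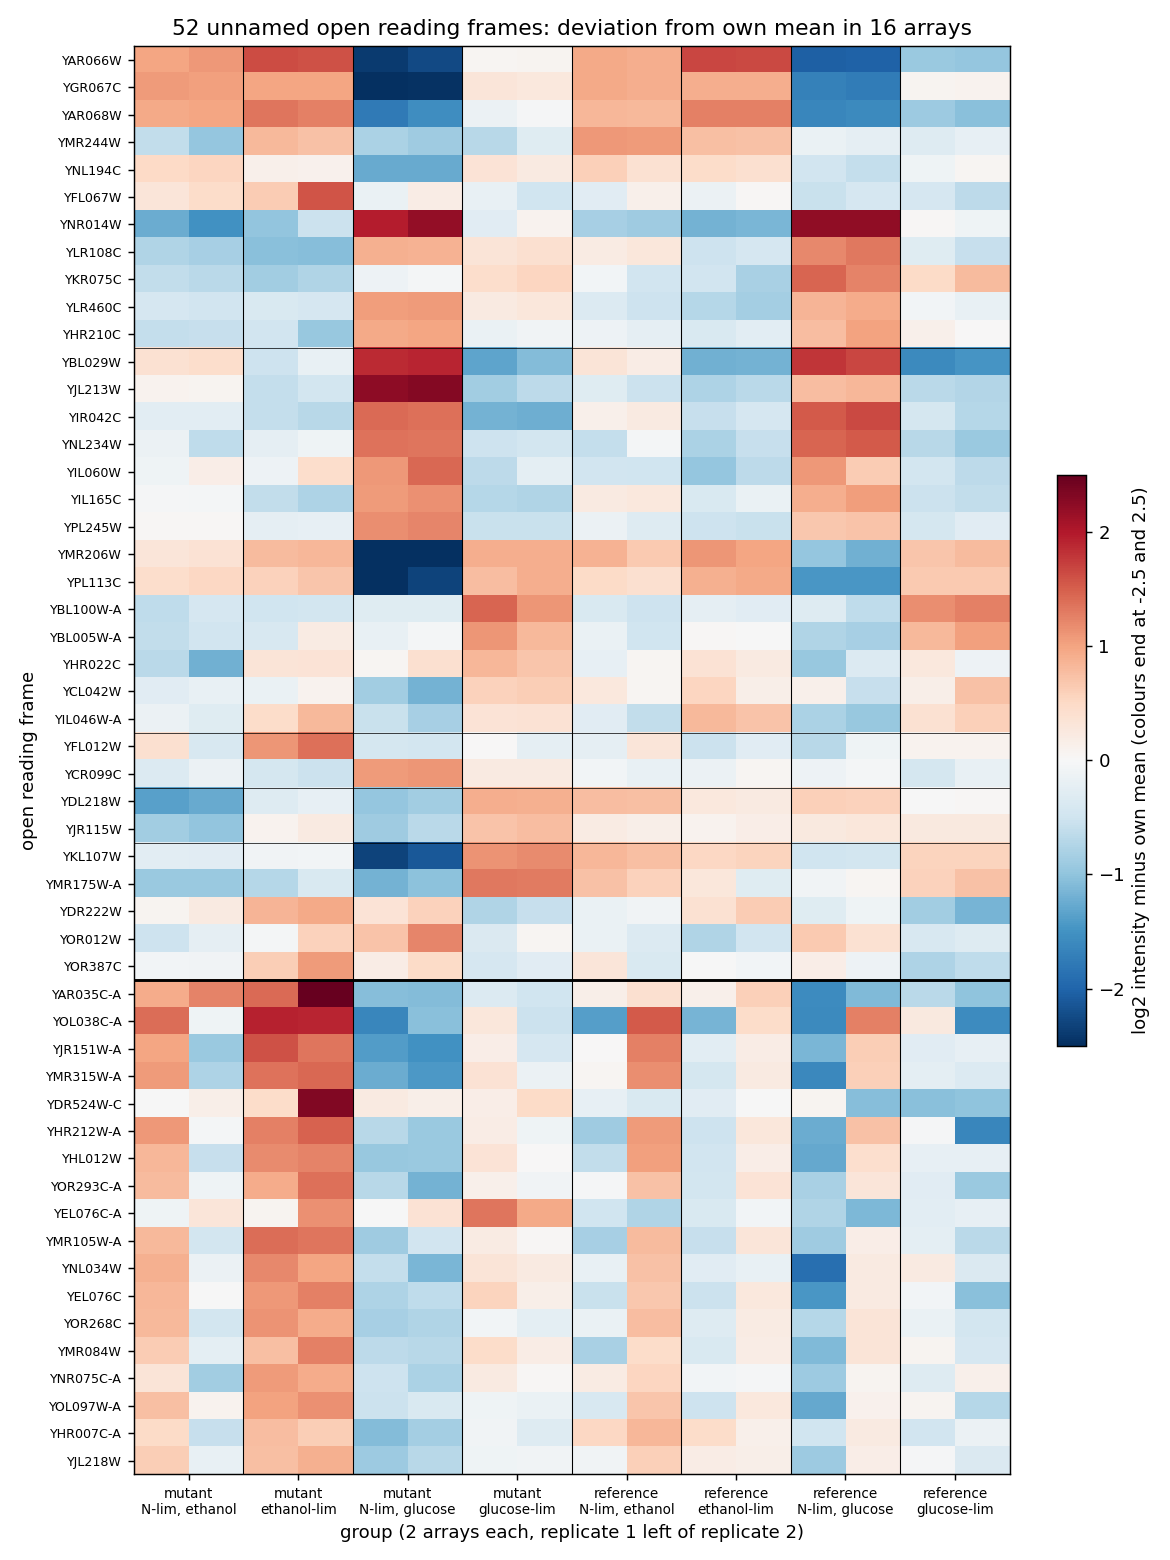
Log2 intensity of the 52 members (y axis, open reading frames) in 16 arrays (x axis, 8 groups with 2 arrays each), as the difference from the member's own mean. The 34 members with array differences under 1 stand above the thick line, ordered by the part of the layout with the largest share. The 18 others stand below it.

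Of the 25 members ordered by the carbon source, 20 were higher on ethanol on average and 5 were lower. The 20 were YAR066W, YGR067C, YAR068W, YMR244W, YNL194C, YFL067W, YAR035C-A, YNL034W, YHR007C-A and 11 of the 12 members named above for one pattern between arrays, all but YMR084W. The members with the steadiest arrays were YAR066W, YGR067C and YAR068W. YAR066W and YAR068W lie next to each other near the right end of chromosome I, a region that resembles the right end of chromosome VIII, and the probe set of YAR066W can match several transcripts. YGR067C encodes a protein with a zinc finger motif like that of Adr1, an activator of genes for the use of ethanol.

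YAR066W measured 12.09 and 12.18 under nitrogen limitation on ethanol, 12.74 and 12.70 under ethanol limitation, 8.72 and 8.85 under nitrogen limitation on glucose and 11.15 and 11.18 under glucose limitation in the mutant. In the reference, YAR066W measured 12.05 and 12.01 under nitrogen limitation on ethanol, 12.78 and 12.75 under ethanol limitation, 9.06 and 9.09 under nitrogen limitation on glucose and 10.17 and 10.15 under glucose limitation. The lowest arrays were those of nitrogen limitation on glucose in both strains, and the groups on ethanol overlapped with none of the groups on glucose. YAR066W was 3.35 higher on ethanol than on glucose under nitrogen limitation in the mutant and 2.96 in the reference (SE 0.05 for each difference).

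YAR068W measured 13.30 and 13.33 under nitrogen limitation on ethanol, 13.68 and 13.62 under ethanol limitation, 10.58 and 10.80 under nitrogen limitation on glucose and 12.20 and 12.32 under glucose limitation in the mutant. In the reference, YAR068W measured 13.19 and 13.16 under nitrogen limitation on ethanol, 13.60 and 13.60 under ethanol limitation, 10.72 and 10.75 under nitrogen limitation on glucose and 11.44 and 11.30 under glucose limitation. The order of the conditions was the same as for YAR066W in both strains, and the 8 group means of the pair correlated at 0.994. The genes with a standard name whose group means were most like those of YAR066W were CRC1, the carnitine carrier of the mitochondrion, SIP4, an activator of gluconeogenic genes, and YAT2, a carnitine acetyltransferase, with Pearson r of 0.977, 0.973 and 0.967 over 8 groups. For YAR068W they were CRC1, ICL1 (isocitrate lyase) and PCK1 (phosphoenolpyruvate carboxykinase), with 0.979, 0.972 and 0.964. Here and below, the most alike genes were sought only among the 271 standard names with a mean of at least 8 and a range of at least 1.5. All correlations of group means given here are descriptions over 8 points from shared arrays.

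YGR067C measured 13.99 and 13.97 under nitrogen limitation on ethanol, 13.92 and 13.93 under ethanol limitation, 10.39 and 10.46 under nitrogen limitation on glucose and 13.25 and 13.20 under glucose limitation in the mutant. In the reference, YGR067C measured 13.89 and 13.84 under nitrogen limitation on ethanol, 13.85 and 13.84 under ethanol limitation, 11.25 and 11.19 under nitrogen limitation on glucose and 13.01 and 13.02 under glucose limitation. Every array apart from those of nitrogen limitation on glucose was above 13. YGR067C was 3.56 higher on ethanol than on glucose under nitrogen limitation in the mutant and 2.65 in the reference (SE 0.04). Under carbon limitation, the same difference was 0.70 in the mutant and 0.83 in the reference. Most like it were ACH1, which acts on acetyl-CoA, SFC1, the succinate-fumarate carrier, and PDH1, a gene of the methylcitrate pathway, with r of 0.992, 0.991 and 0.990.

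YMR244W also belonged to the members that were higher on ethanol, and it was among the 5 with the largest difference between the strains. YMR244W measured 8.17 and 7.81 under nitrogen limitation on ethanol, 9.59 and 9.52 under ethanol limitation, 7.98 and 7.89 under nitrogen limitation on glucose and 8.09 and 8.47 under glucose limitation in the mutant. In the reference, YMR244W measured 9.86 and 9.85 under nitrogen limitation on ethanol, 9.54 and 9.52 under ethanol limitation, 8.61 and 8.56 under nitrogen limitation on glucose and 8.46 and 8.57 under glucose limitation. Under nitrogen limitation on ethanol, the mutant arrays lay below both reference arrays, and the difference was -1.86 (SE 0.13). Under ethanol limitation, the arrays of both strains lay between 9.52 and 9.59. YNL194C, a membrane protein of the SUR7 family, ranged over 16 arrays between 11.04 and 12.89 and was lowest under nitrogen limitation on glucose. Its group means correlated at 0.955 with those of the adjacent YNL195C. YFL067W ranged from 9.96 to 12.18, and its highest array, of ethanol limitation in the mutant, lay 0.93 above the other array of that group. YNL034W ranged from 6.52 to 9.61 and YHR007C-A from 8.86 to 10.76, and both had array differences of more than 1.

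The 5 members that were lower on ethanol were YNR014W, YLR108C, YKR075C, YLR460C and YHR210C. YNR014W and YMR206W are paralogs from the whole-genome duplication, and no function is assigned to either. YNR014W measured 8.04 and 7.76 under nitrogen limitation on ethanol, 8.30 and 8.74 under ethanol limitation, 11.24 and 11.48 under nitrogen limitation on glucose and 8.99 and 9.38 under glucose limitation in the mutant. In the reference, YNR014W measured 8.45 and 8.38 under nitrogen limitation on ethanol, 8.10 and 8.14 under ethanol limitation, 11.50 and 11.50 under nitrogen limitation on glucose and 9.31 and 9.16 under glucose limitation. The 4 arrays of nitrogen limitation on glucose were at least 11.24, and the 12 others were at most 9.38. Ethanol minus glucose under nitrogen limitation was -3.46 in the mutant and -3.09 in the reference (SE 0.16). The closest standard names were COX5B, an isoform of a cytochrome c oxidase subunit used when oxygen is low, PFK27, a kinase that makes an activator of glycolysis, and RED1, a protein of the meiotic chromosome axis, with r of 0.991, 0.985 and 0.983.

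YLR108C, a protein with a BTB-like domain, ranged from 9.89 to 12.27 over the arrays, and its group means correlated at 0.963 with those of the adjacent AHP1, a thiol peroxidase. YKR075C resembles Reg1, a regulatory subunit of the phosphatase that acts in glucose repression. Under nitrogen limitation on glucose, YKR075C measured 11.34 and 11.42 in the mutant, against 12.91 and 12.70 in the reference, which was its highest group. YLR460C resembles quinone oxidoreductases, and YHR210C resembles aldose epimerases. Both had their highest group mean in the mutant under nitrogen limitation on glucose, and over 16 arrays YLR460C ranged from 8.87 to 10.80 and YHR210C from 7.81 to 9.75.

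The limitation had the largest share of the variation in 15 members. On average, 7 of them were higher under nitrogen limitation (YBL029W, YJL213W, YIR042C, YNL234W, YIL060W, YIL165C and YPL245W). The other 8 were lower (YMR206W, YPL113C, YBL100W-A, YBL005W-A, YHR022C, YMR084W, YCL042W and YIL046W-A). In all 7 and in both strains, nitrogen minus carbon limitation was larger on glucose than on ethanol.

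YBL029W measured 12.11 and 12.17 under nitrogen limitation on ethanol, 11.22 and 11.54 under ethanol limitation, 13.60 and 13.63 under nitrogen limitation on glucose and 10.41 and 10.64 under glucose limitation in the mutant. In the reference, YBL029W measured 12.05 and 11.92 under nitrogen limitation on ethanol, 10.53 and 10.55 under ethanol limitation, 13.52 and 13.41 under nitrogen limitation on glucose and 10.13 and 10.25 under glucose limitation. Under nitrogen limitation on glucose, YBL029W was above every other array by more than 1. It was 3.09 higher than under glucose limitation in the mutant and 3.27 higher in the reference (SE 0.11), and on ethanol the differences were 0.76 and 1.44. Closest to it in group means were DIP5, a permease for dicarboxylic amino acids, DAL7, a malate synthase of allantoin breakdown, and FET4, an iron transporter of low affinity, with r of 0.992, 0.989 and 0.982.

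YJL213W resembles amidohydrolases. YJL213W measured 9.93 and 9.91 under nitrogen limitation on ethanol, 9.26 and 9.39 under ethanol limitation, 12.08 and 12.14 under nitrogen limitation on glucose and 8.99 and 9.20 under glucose limitation in the mutant. In the reference, YJL213W measured 9.55 and 9.31 under nitrogen limitation on ethanol, 9.08 and 9.17 under ethanol limitation, 10.61 and 10.68 under nitrogen limitation on glucose and 9.18 and 9.12 under glucose limitation. Nitrogen limitation on glucose gave the highest arrays in both strains, and the mutant arrays lay 1.46 above the reference arrays there on average (SE 0.09). The nearest patterns were those of QDR2, a multidrug transporter, RMD6, and PTR2, a transporter of small peptides, with r of 0.948, 0.942 and 0.934.

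The others of the 7 had smaller ranges. YIL165C and the adjacent NIT1 are the parts of a nitrilase gene that is split in the reference genome, and their group means correlated at 0.982. YIL165C measured 13.56 and 13.64 in the mutant under nitrogen limitation on glucose, against 11.79 and 11.75 under glucose limitation. In the reference, YIL165C measured 13.41 and 13.55 under nitrogen limitation on glucose, against 11.97 and 11.89 under glucose limitation. YNL234W resembles globins, and its group means correlated at 0.928 with those of the adjacent SIN4, a subunit of Mediator whose own range was 0.25. Over the 16 arrays, YNL234W ranged from 9.65 to 12.11, YIR042C from 9.93 to 12.82, YIL060W from 7.88 to 10.28 and YPL245W from 10.83 to 12.61. In each of these 4 members, all 4 arrays of nitrogen limitation on glucose lay above the 12 others.

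YMR206W had the largest range of all members, 4.56. YMR206W measured 12.47 and 12.51 under nitrogen limitation on ethanol, 12.95 and 12.99 under ethanol limitation, 8.59 and 8.69 under nitrogen limitation on glucose and 13.05 and 13.06 under glucose limitation in the mutant. In the reference, YMR206W measured 13.01 and 12.80 under nitrogen limitation on ethanol, 13.26 and 13.15 under ethanol limitation, 11.18 and 10.95 under nitrogen limitation on glucose and 12.84 and 12.95 under glucose limitation. Outside nitrogen limitation on glucose, the arrays lay between 12.47 and 13.26. On glucose, nitrogen minus glucose limitation was -4.42 in the mutant and -1.83 in the reference, and the mutant minus the reference under nitrogen limitation on glucose was -2.42 (SE 0.09). Most like it were ADR1, MBR1, which takes part in mitochondrial function, and SPG4, a gene of stationary phase, with r of 0.991, 0.990 and 0.983. The group means of YMR206W and of its paralog YNR014W correlated at -0.83, and the group that was lowest for YMR206W in each strain was the highest for YNR014W.

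YPL113C resembles reductases of glyoxylate and related acids. YPL113C measured 11.998 and 12.08 under nitrogen limitation on ethanol, 12.14 and 12.25 under ethanol limitation, 8.89 and 9.24 under nitrogen limitation on glucose and 12.33 and 12.48 under glucose limitation in the mutant. In the reference, YPL113C measured 12.03 and 11.96 under nitrogen limitation on ethanol, 12.45 and 12.50 under ethanol limitation, 10.10 and 10.12 under nitrogen limitation on glucose and 12.21 and 12.21 under glucose limitation. It was lowest under nitrogen limitation on glucose in both strains, and the mutant minus the reference was -1.04 there (SE 0.10). The closest standard names were RRT6, ADR1 and CIT3, a citrate synthase of the mitochondrion, with r of 0.987, 0.985 and 0.984.

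YBL100W-A and YBL005W-A are frames for the Gag protein of Ty retrotransposons, and their probe sets can match several copies. YBL100W-A measured between 10.57 and 10.99 in 12 arrays, against 12.32 to 12.67 in the 4 arrays of glucose limitation. YBL005W-A measured between 9.75 and 10.79 in those 12 arrays, against 11.39 to 11.69 under glucose limitation, and the group means of the pair correlated at 0.94. YCL042W overlaps GLK1, a glucokinase gene on the same strand, and correlated with it at 0.958, so that the signals of the pair may not be separate. YCL042W ranged from 9.57 to 11.49, YHR022C from 7.02 to 9.07 and YIL046W-A from 7.27 to 9.02.

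The carbon source by limitation had the largest share of the variation in YKL107W, YMR175W-A, YDR222W, YOR012W and YOR387C. YKL107W resembles short-chain dehydrogenases. YKL107W measured 11.41 and 11.40 under nitrogen limitation on ethanol, 11.58 and 11.61 under ethanol limitation, 9.35 and 9.56 under nitrogen limitation on glucose and 12.80 and 12.86 under glucose limitation in the mutant. In the reference, YKL107W measured 12.50 and 12.44 under nitrogen limitation on ethanol, 12.20 and 12.24 under ethanol limitation, 11.17 and 11.22 under nitrogen limitation on glucose and 12.23 and 12.24 under glucose limitation. The mutant minus the reference was -1.74 under nitrogen limitation on glucose and 0.59 under glucose limitation (SE 0.06). Its mutant arrays under nitrogen limitation on glucose lay below all 14 other arrays. Closest to it in group means were SPG1, a gene of stationary phase, IGD1, an inhibitor of glycogen debranching, and XYL2, a xylitol dehydrogenase, with r of 0.976, 0.969 and 0.968.

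YMR175W-A measured 7.51 and 7.51 under nitrogen limitation on ethanol, 7.72 and 8.05 under ethanol limitation, 7.24 and 7.41 under nitrogen limitation on glucose and 9.75 and 9.72 under glucose limitation in the mutant. In the reference, YMR175W-A measured 9.16 and 9.01 under nitrogen limitation on ethanol, 8.72 and 8.13 under ethanol limitation, 8.34 and 8.49 under nitrogen limitation on glucose and 9.004 and 9.17 under glucose limitation. The mutant arrays were below the reference arrays in 3 of the 4 conditions, without overlap, and above them under glucose limitation. The differences between the strains were -1.58 under nitrogen limitation on ethanol, -0.54 under ethanol limitation, -1.08 under nitrogen limitation on glucose and 0.65 under glucose limitation (SE 0.17).

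YDR222W has a paralog, YLR225C, which is also uncharacterized. YDR222W measured 10.96 and 11.11 under nitrogen limitation on ethanol, 11.75 and 11.84 under ethanol limitation, 11.24 and 11.48 under nitrogen limitation on glucose and 10.14 and 10.31 under glucose limitation in the mutant. In the reference, YDR222W measured 10.74 and 10.82 under nitrogen limitation on ethanol, 11.28 and 11.52 under ethanol limitation, 10.60 and 10.78 under nitrogen limitation on glucose and 10.03 and 9.74 under glucose limitation. On glucose, nitrogen limitation stood above glucose limitation by 1.13 in the mutant and by 0.80 in the reference (SE 0.13). On ethanol the direction was the opposite, with nitrogen minus ethanol limitation at -0.76 in the mutant and -0.62 in the reference. YOR387C, the paralog of VEL1, and YOR012W stand next to the limit on the range. YOR387C ranged from 7.25 to 9.09 over the arrays and YOR012W from 9.27 to 11.24.

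In 3 members the strain by limitation had the largest share of the variation. In all 3, the mutant stood lower, relative to the reference, under nitrogen limitation than under carbon limitation. YDL218W measured 11.73 and 11.83 under nitrogen limitation on ethanol, 12.77 and 12.88 under ethanol limitation, 12.12 and 12.22 under nitrogen limitation on glucose and 13.996 and 13.98 under glucose limitation in the mutant. In the reference, YDL218W measured 13.87 and 13.85 under nitrogen limitation on ethanol, 13.35 and 13.32 under ethanol limitation, 13.68 and 13.68 under nitrogen limitation on glucose and 13.08 and 13.13 under glucose limitation. The mutant minus the reference was -2.08 under nitrogen limitation on ethanol, -0.51 under ethanol limitation, -1.51 under nitrogen limitation on glucose and 0.88 under glucose limitation (SE 0.05). In no condition did the arrays of the strains overlap.

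YJR115W is a paralog of ECM13. YJR115W measured 10.19 and 10.07 under nitrogen limitation on ethanol, 11.16 and 11.28 under ethanol limitation, 10.18 and 10.40 under nitrogen limitation on glucose and 11.77 and 11.83 under glucose limitation in the mutant. In the reference, YJR115W measured 11.28 and 11.20 under nitrogen limitation on ethanol, 11.16 and 11.23 under ethanol limitation, 11.30 and 11.35 under nitrogen limitation on glucose and 11.30 and 11.30 under glucose limitation. All 8 reference arrays lay between 11.16 and 11.35, while the mutant arrays ranged from 10.07 to 11.83. The mutant minus the reference was -1.04 for YJR115W under nitrogen limitation on glucose and 0.50 under glucose limitation (SE 0.07).

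YNR075C-A measured 8.83 and 7.65 under nitrogen limitation on ethanol, 9.57 and 9.44 under ethanol limitation, 7.98 and 7.72 under nitrogen limitation on glucose and 8.73 and 8.53 under glucose limitation in the mutant. In the reference, YNR075C-A measured 8.72 and 9.04 under nitrogen limitation on ethanol, 8.44 and 8.48 under ethanol limitation, 7.61 and 8.57 under nitrogen limitation on glucose and 8.19 and 8.64 under glucose limitation. The arrays of a group differed by up to 1.18, and the SE of a difference between groups was 0.37. The arrays of nitrogen limitation on ethanol in the mutant enclosed 1 of the reference arrays of that condition.

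The strain by carbon source had the largest share of the variation in YFL012W and YCR099C. YFL012W measured 8.44 and 7.64 under nitrogen limitation on ethanol, 9.15 and 9.42 under ethanol limitation, 7.60 and 7.60 under nitrogen limitation on glucose and 8.06 and 7.83 under glucose limitation in the mutant. In the reference, YFL012W measured 7.82 and 8.34 under nitrogen limitation on ethanol, 7.51 and 7.77 under ethanol limitation, 7.35 and 7.95 under nitrogen limitation on glucose and 8.13 and 8.14 under glucose limitation. The mutant arrays under ethanol limitation lay above all 14 others and 1.65 above the reference (SE 0.27). Its probe set is close to the limit on the mean, and the largest component held 20.4% of the variation between group means.

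YCR099C measured 9.32 and 9.50 under nitrogen limitation on ethanol, 9.21 and 9.12 under ethanol limitation, 10.73 and 10.76 under nitrogen limitation on glucose and 9.88 and 9.88 under glucose limitation in the mutant. In the reference, YCR099C measured 9.59 and 9.46 under nitrogen limitation on ethanol, 9.50 and 9.70 under ethanol limitation, 9.53 and 9.61 under nitrogen limitation on glucose and 9.21 and 9.46 under glucose limitation. The mutant under nitrogen limitation on glucose lay above all other arrays and 1.18 above the reference of that condition (SE 0.10). YCR099C lies near the right end of chromosome III and overlaps an adjacent gene.

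The strain had the largest share of the variation in YDR524W-C and YEL076C-A. YDR524W-C measured 8.93 and 9.08 under nitrogen limitation on ethanol, 9.41 and 11.26 under ethanol limitation, 9.17 and 9.10 under nitrogen limitation on glucose and 9.12 and 9.43 under glucose limitation in the mutant. In the reference, YDR524W-C measured 8.73 and 8.56 under nitrogen limitation on ethanol, 8.66 and 8.95 under ethanol limitation, 9.02 and 7.88 under nitrogen limitation on glucose and 7.90 and 7.94 under glucose limitation. Under ethanol limitation, the mutant arrays differed by 1.85, and without the higher of them the range of group means was 1.49, under the limit of 1.5. YEL076C-A measured 10.45 and 10.88 under nitrogen limitation on ethanol, 10.62 and 11.72 under ethanol limitation, 10.55 and 10.92 under nitrogen limitation on glucose and 11.90 and 11.52 under glucose limitation in the mutant. In the reference, YEL076C-A measured 10.07 and 9.81 under nitrogen limitation on ethanol, 10.19 and 10.50 under ethanol limitation, 9.82 and 9.45 under nitrogen limitation on glucose and 10.29 and 10.36 under glucose limitation. YEL076C-A lies at the left end of chromosome V, in sequence that many chromosome ends share, and its probe set can match several transcripts. In all 4 conditions, both mutant arrays lay above both reference arrays.

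**Figure D3:**
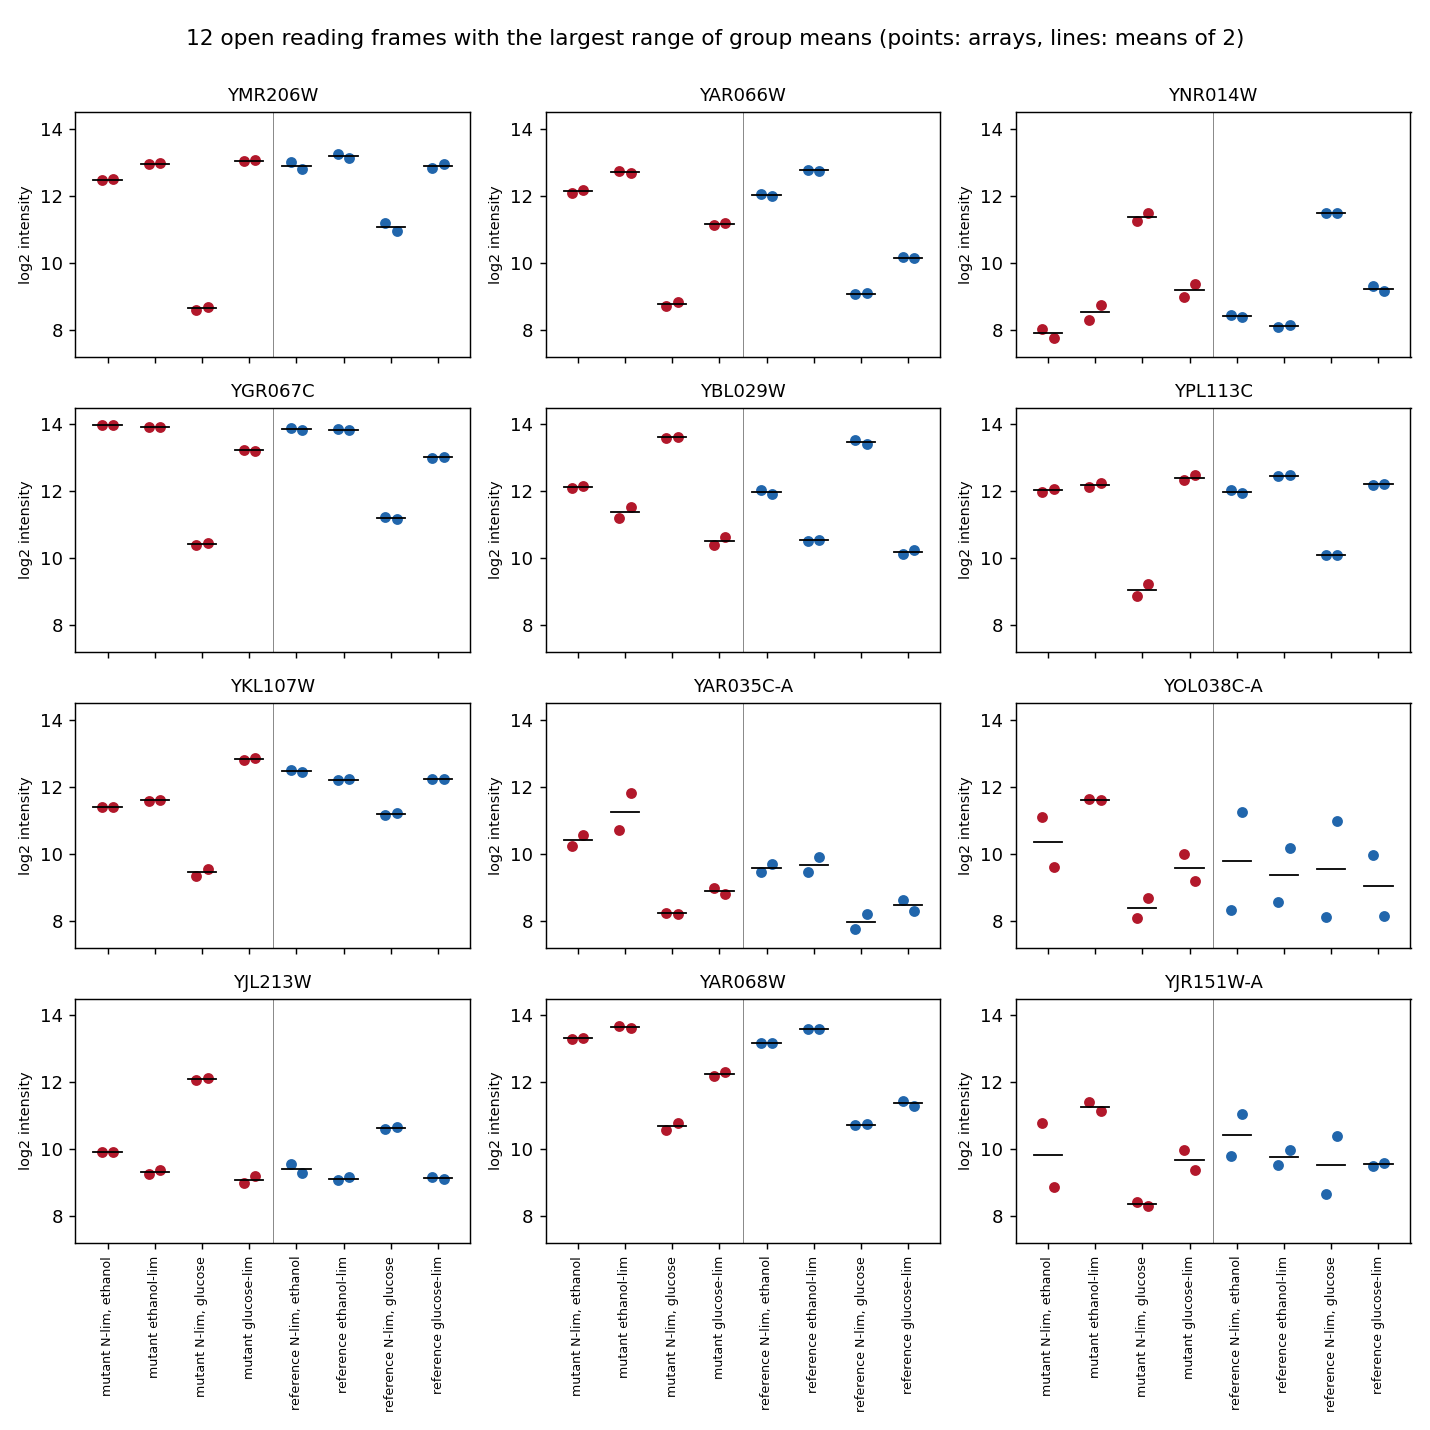
Log2 intensity (y axis) of the 12 members with the largest range of group means in the 8 groups (x axis), with the mutant in red on the left and the reference in blue on the right. Points are single arrays and lines are the means of 2. The arrays lie close together in most panels, and in YOL038C-A the arrays of a group lie up to 2.90 apart.

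YAR035C-A, YOL038C-A and YJR151W-A were among the 12 members with the largest range and among the 18 whose arrays differed by at least 1. YAR035C-A measured 10.25 and 10.56 under nitrogen limitation on ethanol, 10.73 and 11.80 under ethanol limitation, 8.25 and 8.22 under nitrogen limitation on glucose and 8.97 and 8.82 under glucose limitation in the mutant. In the reference, YAR035C-A measured 9.45 and 9.71 under nitrogen limitation on ethanol, 9.45 and 9.91 under ethanol limitation, 7.75 and 8.21 under nitrogen limitation on glucose and 8.63 and 8.30 under glucose limitation. Ethanol limitation in the mutant gave the highest array, 1.08 above the other array of its group. The nearest patterns were those of TRM13, a tRNA methyltransferase, FRM2, a nitroreductase-like protein, and GAL3, the galactose sensor, with r of 0.927, 0.925 and 0.920.

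YOL038C-A measured 11.10 and 9.61 under nitrogen limitation on ethanol, 11.64 and 11.61 under ethanol limitation, 8.09 and 8.67 under nitrogen limitation on glucose and 9.996 and 9.18 under glucose limitation in the mutant. In the reference, YOL038C-A measured 8.34 and 11.24 under nitrogen limitation on ethanol, 8.55 and 10.16 under ethanol limitation, 8.11 and 10.97 under nitrogen limitation on glucose and 9.96 and 8.13 under glucose limitation. In the reference, the arrays lay 2.90 apart under nitrogen limitation on ethanol and 2.86 apart under nitrogen limitation on glucose. YOL038C-A was 2.26 higher in the mutant than in the reference under ethanol limitation, with an SE of 1.14. Most like it were LSO1, RAD61, a regulator of cohesin, and OSW1, a gene of the spore wall, with r of 0.979, 0.977 and 0.968.

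YJR151W-A measured 10.78 and 8.89 under nitrogen limitation on ethanol, 11.40 and 11.15 under ethanol limitation, 8.42 and 8.29 under nitrogen limitation on glucose and 9.97 and 9.38 under glucose limitation in the mutant. In the reference, YJR151W-A measured 9.81 and 11.07 under nitrogen limitation on ethanol, 9.55 and 9.98 under ethanol limitation, 8.66 and 10.41 under nitrogen limitation on glucose and 9.51 and 9.60 under glucose limitation. The mutant arrays under ethanol limitation were the highest group, and those under nitrogen limitation on ethanol differed by 1.90. The closest standard names were SLZ1, a gene of sporulation, RAD61, and SPO13, a regulator of meiosis, with r of 0.967, 0.953 and 0.952. Of the genes named beside YAR035C-A, YOL038C-A and YJR151W-A, FRM2, GAL3, LSO1, RAD61 and OSW1 shared the array pattern described next.

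The 12 members with one pattern between arrays had a pooled SD from 0.39 to 1.27 (median 0.65). In nitrogen limitation on ethanol in the mutant, replicate 2 was below replicate 1 in 12 of 12, with a median difference of -1.20. In the reference, replicate 2 was above replicate 1 in 12 of 12 under nitrogen limitation on ethanol (median 1.24) and in 12 of 12 under nitrogen limitation on glucose (median 1.56). The replicate numbers only name the arrays. The median of these 12 members ran from 8.68 to 11.43 over the 16 arrays, while the median of all probe sets ran from 11.91 to 12.01. The members were picked for this pattern, and its share in their differences between groups was not tested.

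**Figure D4:**
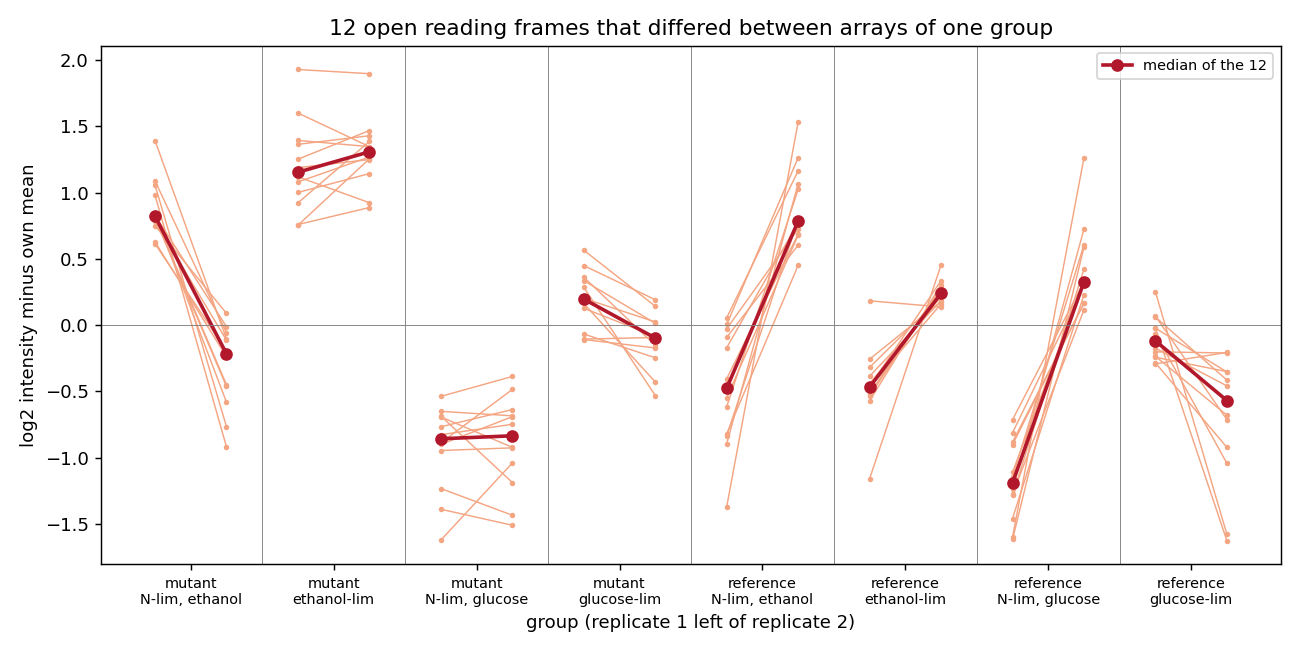
Log2 intensity minus the member's own mean (y axis) in 16 arrays (x axis, 8 groups, replicate 1 left of replicate 2) for the 12 members with one pattern between arrays. Thin lines are members and the thick line is their median, and in the reference under nitrogen limitation on glucose the median difference between the arrays is 1.56.

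All 12 had their highest group mean in the mutant under ethanol limitation, where the median of the 12 was 11.30 in one array and 11.43 in the other. The lowest group mean was that of the mutant under nitrogen limitation on glucose in 10 of the 12, where the medians were 8.88 and 8.93. A dash in the name, which marks frames added later to the annotation, occurred in 7 of the 12 and in 9 of the 40 other members. YHL012W, which resembles the UDP-glucose pyrophosphorylase Ugp1, measured 10.77 and 10.84 in the mutant under ethanol limitation, against 9.12 and 9.75 in the reference. YMR084W is a part of a split homologue of GFA1, and YJL218W resembles acetyltransferases. YMR315W-A correlated at 0.917 with the adjacent DIA1. Over all 5322 genes with a mean of at least 8, 31 (0.582%) had a largest array difference of at least 1 and a likeness of 0.9 or more to the median pattern of the 12. Of the 31, 13 were members (the 12 and YNL034W) and 16 had a standard name, which were PDR18, OSW1, RAD61, LSO1, SPO19, RTA1, FRM2, GAL3, REC102, BSC4, SMA1, GPM3, SMA2, PGU1, ARO10 and MPS2.

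The mutant under ethanol limitation held the highest group mean in 22 of 52 members (42.3%), against 29 of 271 standard names that pass the same limits (10.7%). Among the 34 members with array differences under 1, it was 5. The 271 standard names had no such limit on array differences, and 12 of them shared the array pattern above. The mutant under nitrogen limitation on glucose held the lowest group mean in 24 of 52 (46.2%) and in 125 of the 271 standard names (46.1%). Among the 34, it was the lowest in 11. In all 52 members, the lower array of the highest group lay above the higher array of the lowest group, and in 38 this gap was at least 1.5. Both counts follow in part from the choice. They were not set beside those of standard names, so nothing is read from them.

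Members were also counted against the limma threshold, in contrasts of the same group means that chose them. The counts are therefore read beside the share of all probe sets only. In the mutant against the reference, 13 of 52 passed under nitrogen limitation on ethanol (2 higher, 11 lower), where 15.8% of all probe sets did. Under ethanol limitation, 19 passed (11 higher, 8 lower), against 24.8% of all. Under nitrogen limitation on glucose, 20 passed (7 higher, 13 lower), against 21.1% of all, and under glucose limitation 14 passed (12 higher, 2 lower), against 18.2% of all. Among the 34 members with array differences under 1, 13 passed under nitrogen limitation on ethanol, 17 under ethanol limitation, 19 under nitrogen limitation on glucose and 13 under glucose limitation. The 34 were picked for a small spread between arrays, which itself favours passing the threshold. Their counts are therefore not comparable with the shares of all probe sets, and nothing is read from them. The size of the strain difference was at least 1 in 6 members under nitrogen limitation on ethanol (1.07% of all probe sets) and in 17 under ethanol limitation (1.71% of all). It was at least 1 in 12 members under nitrogen limitation on glucose (1.36% of all) and in 3 under glucose limitation (0.945% of all). Among the 34, these counts were 6, 2, 9 and 1 in the same order. Thus 15 of the 17 under ethanol limitation were members whose arrays differed by at least 1 in some group. That group was not always one of ethanol limitation. For the 12 members with one pattern, the median of replicate 2 minus replicate 1 under ethanol limitation was 0.10 in the mutant and 0.72 in the reference.

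For nitrogen against carbon limitation in the mutant, 19 members passed on ethanol (6 higher, 13 lower), where 14.3% of all probe sets did, and 32 passed on glucose (15 higher, 17 lower), where 48.8% did. In the reference, 14 passed on ethanol (9 higher, 5 lower), where 8.21% did, and 28 passed on glucose (16 higher, 12 lower), where 43.6% did. For ethanol against glucose in the mutant, 29 passed under nitrogen limitation (13 higher, 16 lower), where 42.5% of all did, and 24 passed under carbon limitation (12 higher, 12 lower), where 31.9% did. In the reference, 25 passed under nitrogen limitation (12 higher, 13 lower), where 33.6% did, and 19 under carbon limitation (12 higher, 7 lower), where 24.3% did. Among the 34, the counts for nitrogen against carbon limitation were 18 on ethanol and 31 on glucose in the mutant, and 14 on ethanol and 28 on glucose in the reference. Those for ethanol against glucose were 25 under nitrogen and 23 under carbon limitation in the mutant, and 24 under nitrogen and 18 under carbon limitation in the reference. As above, the choice of the 34 favours passing, and nothing is read from their counts. These comparisons share arrays with each other. The labels do not say whether both arrays of a group stem from different cultures, and p-values then reflect no more than the spread of these arrays, possibly a technical one.

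Of the 52 members, 15 (28.8%) were among the 10 outermost annotated genes of a chromosome end. With a mean of at least 8, the same held for 41 of 374 (10.96%) other systematic names and 161 of 4893 (3.29%) standard names. The other systematic names had ranges under 1.5 and the standard names had no limit on the range. The 3 shares are therefore not like for like. Near the ends were YAR066W and YAR068W, YEL076C and YEL076C-A, YIR042C, YFL067W, YNR075C-A, YIL165C, YAR035C-A, YLR460C, YJL218W, YJR151W-A, YJL213W, YCR099C and YOR387C. Some of these carry sequence repeated at other ends, and 5 of the 52 probe sets can match several transcripts (YAR066W, YEL076C-A, YEL076C, YBL100W-A and YBL005W-A). Each member was paired with its adjacent genes, so that adjacent members such as YAR066W and YAR068W count from both sides. Of these 92 pairs, 8 (8.70%) correlated at 0.9 or more across group means, with a median r of 0.20. Over 4796 pairs of adjacent genes, counted once and with both means at least 8, the share was 2.06% and the median 0.07. The members were chosen for a wide range and their neighbours had no limit on the mean, so these shares are not like for like. In 8 members, the annotated frame overlaps an adjacent gene.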

How the data were processed

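The 16 arrays were grouped by strain, carbon source and limitation as given in the sample titles. The deposited values are linear intensities, 1 per probe set, and none is below 1. Per the labels the authors used GCRMA. The sources used here do not say how the values became linear. All columns were used (0 left out), and log2 was taken with no pseudocount. The brightest probe set stood for a gene. One model of the 8 group means was fitted to all 5716 probe sets with limma 3.58.1 in R 4.3.3 and eBayes, with Benjamini-Hochberg adjusted p under 0.05, and the fit was checked on simulated data. Every array value is given for the 12 members of largest range, the 3 of largest range in each class and the 5 with the largest strain difference. For those 12, the 3 most alike genes are named, out of the 271 standard names that pass the limits on the mean and the range. The members, lists and tests were chosen with earlier results of these data known. Gene positions and names came from the RefSeq table (R64), and no coordinates or sequences are given. Promoter motifs and protein matches were not analysed here. With arrays, no counting depth applies, and 2 arrays per group limit the precision. Alternatives covered limits, normalization, filters, eBayes settings, arrays left out and a replicate block.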

Additional observations from a re-analysis of the deposited data

Results flagged for a closer look

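In some of the 22 members whose array values are all given above, every array of one condition moved in the opposite direction from every array of another condition under the same contrast. None of these differences was tested, since the values also chose the members. No share over other genes is given for the counts below, so they are not read as particular to these members.

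For the mutant minus the reference on glucose, 8 of the 22 were below the reference under nitrogen limitation and above it under glucose limitation. The strain difference under nitrogen limitation minus that under glucose limitation was -2.59 in YMR206W, -1.30 in YAR066W, -1.01 in YGR067C, -1.24 in YPL113C, -2.34 in YKL107W, -2.39 in YDL218W, -1.54 in YJR115W and -1.73 in YMR175W-A. Over all 52 members, 11 ran this way, the other 3 being YNL194C, YLR108C and YNL234W, and 2 ran the other way (YIL165C and YPL245W). Of 22 general stress genes, 0 passed the limma threshold as higher and 18 as lower in the mutant under nitrogen limitation on glucose. Under glucose limitation, 9 passed as higher and 0 as lower. Of all probe sets, 21.1% and 18.2% passed in either direction in these conditions. The stress genes were also lower in the mutant on ethanol, 20 of 22 under ethanol limitation and 13 of 22 under nitrogen limitation. Under nitrogen limitation on glucose, gluconeogenic and glyoxylate genes had 0 higher and 10 lower of 18, and hexose transport 0 and 6 of 9. Nitrogen catabolite repression had 6 and 1 of 27, and ribosome biogenesis 3 and 0 of 20. No link of these lists to the members was tested. YDL218W gave strain differences of -1.51 under nitrogen limitation on glucose and 0.88 under glucose limitation, and YMR206W gave -2.42 and 0.16. On ethanol, the strain difference under nitrogen minus that under ethanol limitation was 0.149 in YAR066W, where both strain differences were small (0.10 and -0.05), and -0.923 in YNR014W. Over all 52, YHR007C-A was the third member with opposite strain differences on ethanol.

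Nitrogen minus carbon limitation ran in opposite directions on the carbon sources in other cases among the 22. The value on ethanol minus that on glucose was -2.80 in YNR014W, 2.86 in YGR067C and -1.89 in YDR222W in the mutant. In the reference it was 1.29 in YKL107W, 0.93 in YFL012W, 1.33 in YMR175W-A and -1.43 in YDR222W. For YGR067C the value on ethanol was only 0.06, against -2.80 on glucose. Over all 52 members, 8 ran in opposite directions in the mutant, the other 5 being YKR075C, YNL194C, YFL067W, YOR012W and YOR387C, and 4 did in the reference, which are those named above.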

How the results depend on the processing

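The number of members was 125 with a range limit of 1 and 26 with a range limit of 2, and 34 when array differences had to be under 1 in every group, which was added after seeing the data, as were cyclic loess and the count without the mutant under ethanol limitation (36 members). Quantile normalization gave 49 members (44 of them among the 52), median centring 53 (52 of them) and cyclic loess 53 (48 of them). Leaving out each array in turn gave 47 to 61 members. The mutant under ethanol limitation was highest in 5 of the 34 members with array differences under 1, and in 21 to 23 members with an array left out. Between 41 and 52 members stayed in their class with an array left out. YFL012W had a range of 1.35 under cyclic loess and YDR524W-C one of 1.49 without replicate 2 of the mutant under ethanol limitation, both under the limit. Counts of members past the limma threshold fell when a log2 difference of at least 1 was also required. In the mutant they were 6 for nitrogen against carbon limitation on ethanol (0.507% of all probe sets passed) and 15 for ethanol against glucose under carbon limitation (2.24% of all). In the reference they were 18 for nitrogen against glucose limitation (4.58%), 2 for nitrogen against ethanol limitation (0.49%) and 8 for ethanol against glucose under carbon limitation (1.47%). For the mutant against the reference they were 6 under nitrogen limitation on ethanol (0.647%), 4 under ethanol limitation (0.945%), 10 under nitrogen limitation on glucose (1.14%) and 2 under glucose limitation (0.665%). With only the 4 arrays compared in the fit, the counts in the mutant were 49 for nitrogen against carbon limitation on glucose (56.7% of all probe sets), 8 for the same on ethanol (2.08%) and 39 for ethanol against glucose under carbon limitation (30.6%). In the reference they were 1 for nitrogen against carbon limitation on ethanol (0.28%) and 12 for ethanol against glucose under carbon limitation (7.49%). For the mutant against the reference they were 6 under nitrogen limitation on ethanol (2.57%), 8 under ethanol limitation (2.89%) and 9 under glucose limitation (4.18%). The cause of these shifts was not tested. With an array left out, the counts for nitrogen against carbon limitation on ethanol ranged from 10 to 23 in the mutant and from 8 to 11 in the reference, those for the mutant against the reference from 8 to 19 under ethanol limitation and from 7 to 9 under nitrogen limitation on ethanol. The mutant count on ethanol was 10 without replicate 2 of either group, and the reference count was 8 without replicate 2 of ethanol limitation or replicate 1 of nitrogen limitation. The strain count under ethanol limitation was 8 without replicate 2 of the mutant and 9 without replicate 1 of the reference, and under nitrogen limitation on ethanol it was 7 without replicate 2 of the mutant. Replicate numbers were those of the sample titles, and the descriptions of the glucose-limited reference arrays give them the other way round. The numbers were not taken to pair the samples, since the differences between replicates correlated between -0.68 and 0.66 over 28 pairs of groups with the numbers of the titles, and between -0.47 and 0.68 with those of the descriptions. With the replicate number as a block, 28 members passed in the reference for nitrogen against glucose limitation on glucose, and no count moved by more than 1.5 times. A block with the numbers of the descriptions, added after seeing the data, gave 29 in that comparison and also moved no count by more than 1.5 times. The SE of a difference between groups ranged from 0.039 to 1.14 over the members (median 0.18), so that the precision differed between them.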
